A study of Mus musculus with 6 samples.

Results

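The interferon response was examined in medullary thymic epithelial cells (mTECs) through 33 genes induced by interferons, out of 21493 genes and unnamed probes tested. The 33 genes were given by symbol, and each was represented by its brightest probe in the authors' deposited array matrix. They comprised 26 genes induced mainly by type I interferon and 7 induced mainly by interferon gamma (Irf1, Iigp1, Igtp, Irgm1, Gbp2, Gbp3 and Socs1). mTECs were sorted from the thymus of MBD1 WT and MBD1 KO mice at 30 days of age, as cells negative for DAPI, CD11c, CD45 and Ly51 and positive for EPCAM and Class II. The product of Mbd1 recognises methylated CpG dinucleotides. RNA was amplified as whole transcriptome, labelled with Cy3 and hybridised to Agilent arrays of a single colour. Per the series' design text, 1 further biological replicate of each genotype had been removed for failed quality control, which left 3 arrays per genotype. The deleted part of Mbd1, the strain and whether animals were pooled were not given in the sources used here, and the p-values below measure only the spread between these arrays.

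Interferons are secreted proteins that act through cell surface receptors. Type I interferons activate a complex that contains STAT2 and IRF9 and binds the interferon-stimulated response element, whereas interferon gamma acts through a palindromic element, the gamma-activated sequence, and induces IRF1. mTECs present antigens of peripheral tissues to maturing T cells, and they are known to express interferon response genes without infection. The comparison of the genotypes addresses whether these genes differ in mTECs without Mbd1.

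Promoter sequences of the members were taken from RefSeq (GRCm38.p6), which gave a promoter for 27 of the 33 genes; Iigp1, Usp18, Mx1, Mx2, Zbp1 and Oas2 had none in the table used. In the 250 bases before any listed start of a gene, the core letters of the interferon-stimulated response element (ISRE; here GAAA, any 2 bases, then GAAA) occurred on either strand in 14 of the 27 members (51.9%) and in 936 of 27025 genes (3.46%). They occurred in 9 of 21 type I members and in 5 of 6 gamma members. Copies of the ISRE letters can overlap each other. TTCNNNGAA, the letters of the gamma-activated sequence and their own reverse complement, occurred in 7 of the 27 members (25.9%) and in 8.13% of all genes. A match in letters is a description of the window and was not tested for binding. The windows below, with matches in capitals, show the spacing of the letters in members of both groups (an Ifit gene, the near-identical Oas1 pair, GTPases and Irf1). Each is read 5′ to 3′ on the strand of its gene, and TTTC, 2 bases, TTTC are the ISRE letters on the opposite strand.
Ifit1, chr19:34640770-34640828, plus strand: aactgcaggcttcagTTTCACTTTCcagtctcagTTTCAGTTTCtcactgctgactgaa
Oas1a, chr5:120907526-120907560, minus strand: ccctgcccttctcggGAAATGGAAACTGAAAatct
Oas1g, chr5:120887614-120887646, minus strand: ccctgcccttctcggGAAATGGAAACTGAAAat
Gbp2, chr3:142620589-142620628, plus strand: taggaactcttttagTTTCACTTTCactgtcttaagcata
Irgm1, chr11:48871421-48871465, minus strand: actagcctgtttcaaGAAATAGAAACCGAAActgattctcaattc
Igtp, chr11:58199507-58199546, plus strand: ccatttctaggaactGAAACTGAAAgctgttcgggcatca
Irf1, chr11:53769909-53769947, plus strand: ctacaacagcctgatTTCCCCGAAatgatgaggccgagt
In Ifit1 the 2 copies stood apart, between 119 and 61 bases before the start for the window shown. In Oas1a, Oas1g and Irgm1 the 2 copies overlapped within a single run of capitals, and Gbp2 and Igtp held 1 copy each. Irf1 had 1 TTCNNNGAA and none of the ISRE letters. The Oas1a and Oas1g windows carried the same letters from their first base to the end of the capitals.

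Mbd1 itself (probe A_51_P143224, chromosome 18) had a log2 intensity of 8.83, 8.60 and 9.0 in the wild type columns of the matrix, against 5.64, 5.61 and 5.61 in its knockout columns (1 to 3 in that order, as for every gene below). All knockout columns lay below all wild type columns, by -3.19 (SE 0.19, adjusted p = 5.4e-05, limma with Benjamini-Hochberg adjustment over all genes). The knockout values were close to the level below which 95% of 5187 probes that were never well above background lay (5.47 to 5.62 by column). The scanner files, which are titled separately, went against this: the processed Mbd1 intensity was 20.9, 304.8 and 15.6 on the arrays titled WT and 356, 17.2 and 682 on those titled KO. In rank over all probes 5 matrix columns equalled a scanner array, none of them the array of their own title, and 4 equalled an array titled with the other genotype. The groups below are therefore the columns named wild type and knockout in the matrix. Columns wild type 1, knockout 2 and knockout 3 equalled arrays of slide 1, wild type 2 and wild type 3 equalled arrays of slide 2, and knockout 1 equalled none.

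All 11 mTEC markers were measured, among them Aire (10.9, 10.5 and 10.8 in wild type, against 11.2, 10.5 and 11.4 in knockout). In their mean 3 were higher in knockout, Aire among them, and 8 were lower, beside 50.6% of all genes. Only 1 of the 11 did not overlap, Krt14, which was lower by -0.24 (SE 0.18), and 0 passed the adjusted threshold in limma. The summed linear intensity of the 11 mTEC markers was 108900 to 123400 in wild type, against 107000 to 116300 in knockout columns. Markers of thymocytes and T cells, which the gate was set to exclude, had sums that did not overlap, at 3228 to 4254 in wild type, against 5660 to 6750 in knockout. All 10 measured of 11 were higher in knockout in their mean, 6 without overlap (8.37% of all genes) and 0 past the adjusted threshold of 0.05 in limma, with 5 at an unadjusted p under 0.05 (4.28% of all genes); Rag2 was not well above background. Dntt and Cd8b1, which mark immature and CD8 T cells, differed by 0.91 (SE 0.19) and 0.97 (SE 0.21), adjusted p = 0.185 for both in limma. The rise was not uniform, as Lck, Ptprc and Cd4 differed by only 0.060 (SE 0.21), 0.043 (SE 0.23) and 0.024 (SE 0.26). Single markers of other cells also did not overlap, and their values are given after the interferon genes. The part of these cells in the interferon values was not tested.

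None of the 33 interferon response genes passed the test between the genotypes. In limma the smallest adjusted p was 0.746, for Iigp1, and the other 32 members were at 0.999. Over all genes 39 (0.181%) passed, 36 higher (0.167%) and 3 lower (0.0140%) in knockout, a count that was 18 without wild type 2. An unadjusted p under 0.05 was reached by 1 member, Iigp1, and by 4.28% of all genes (1.88% in the lower direction). The groups did not overlap for 3 members, all lower in knockout (Iigp1, Ifih1 and Oas1g), against 8.37% of all genes in either direction and 4.07% in the lower and 4.30% in the higher direction. These 3 of 33 members are too few to read as a result about the members.

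The sizes of the differences were small for most members. The difference, knockout minus wild type in log2 intensity, ranged from -0.63 (Iigp1) to 0.46 (Zbp1), with a median of -0.093 beside -0.0039 over all genes. It was negative for 21 members (63.6%) and for 50.6% of all genes. The median size without its sign was 0.18 for the members and 0.14 for all genes. In 25 of the 33 members the standard deviation within genotypes exceeded the difference between them. The 95% interval lay within a change of 2-fold in either direction for 29 members, and reached past it for Irf1, Iigp1, Eif2ak2 and Zbp1. In the same fit on simulated data, 89.5% of genes changed by 2 on the log2 scale were called and 0.0% of those changed by 1. These rates hold for the simulated spread, and may understate how often a change of 1 would be called in these arrays. In the arrays, the cell markers Pacsin1 and Cd8b1 differed by 1.01 (SE 0.20) and 0.97 (SE 0.21). Neither passed (adjusted p = 0.126 and 0.185 in limma). The counts of 0 among members therefore do not separate no change from a moderate one.

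**Figure D1:**
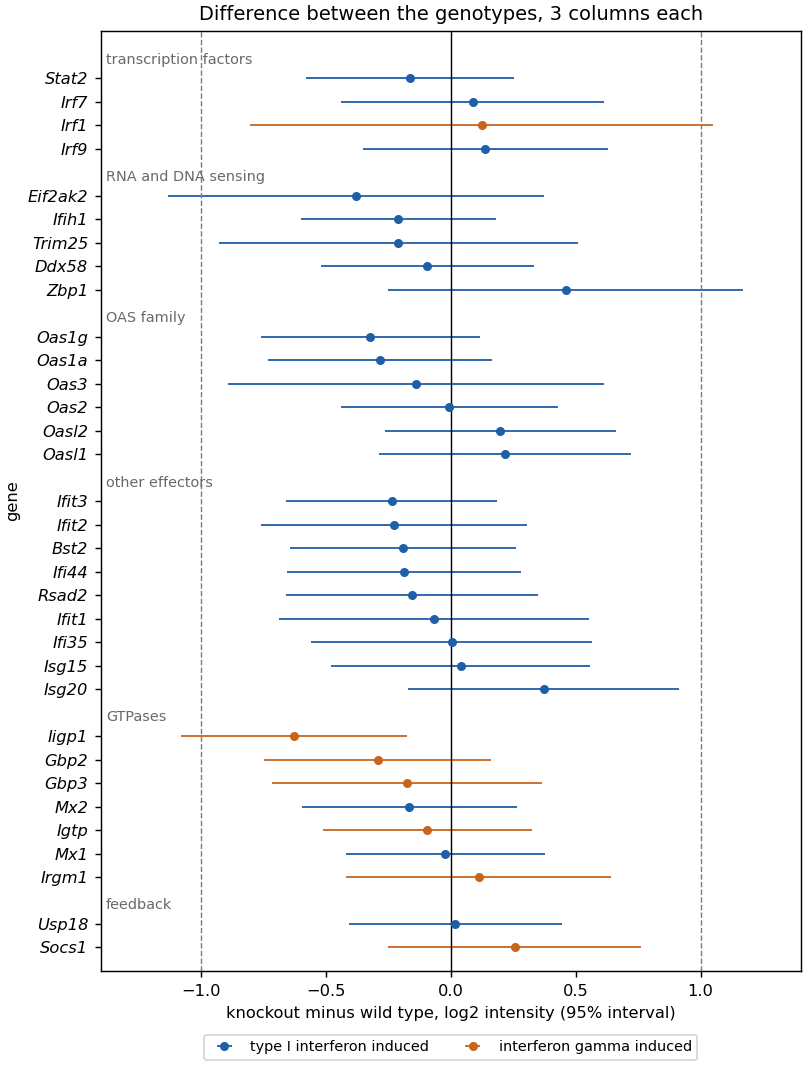
Difference between knockout and wild type in log2 intensity for each of the 33 interferon response genes, grouped by role; points are the fitted difference over 3 columns per genotype, lines are 95% intervals, and dashed lines mark a change of 2-fold. All intervals but that of Iigp1 (-1.08 to -0.17) include 0, and 29 of 33 stay between the dashed lines.

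Of the 4 transcription factors, Stat2 (6.81, 6.66 and 6.71 in wild type, against 6.48, 6.44 and 6.77 in knockout) differed by -0.16 (SE 0.19). Irf9, the DNA-binding partner of STAT2, differed by 0.14 (SE 0.22), and a second probe of it by -0.32. The sign for Irf9 thus depended on the probe, and Stat2 had 1 knockout column above 2 of the wild type columns. Irf7, which amplifies type I interferon production, read 10.56, 11.48 and 11.06 in wild type, against 11.14, 11.08 and 11.15 in knockout. Its knockout columns were close together (SD 0.040) and lay inside the wild type range, with a difference of 0.088 (SE 0.24). Irf1, a factor induced by interferon gamma, read 13.60, 12.69 and 12.49 in wild type, against 13.04, 12.14 and 13.98 in knockout, and differed by 0.12 (SE 0.42). Both its highest and its lowest column were knockout columns, and its other probe differed by 0.14 (SE 0.15).

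Among the 5 sensors of foreign nucleic acid and their partners, 4 were lower in knockout in their mean, beside 50.6% of all genes. Ifih1 encodes MDA5, a sensor of long double-stranded RNA, and read 10.45, 10.41 and 10.41 in wild type, against 10.21, 10.26 and 10.18 in knockout. These groups did not overlap and the columns of each were close together (SD 0.024 and 0.040). The difference was -0.21 (SE 0.18, adjusted p = 0.999 in limma, which draws the small spread of single genes towards that of all genes). Ddx58, which encodes the RNA sensor RIG-I, differed by -0.093 (SE 0.19), and Trim25, a ubiquitin ligase that acts with RIG-I, by -0.21 (SE 0.33). The groups overlapped for both, and Trim25 was at 0.12 without wild type 3. Eif2ak2, the kinase PKR that halts translation upon binding double-stranded RNA, read 9.72, 9.57 and 9.91 in wild type, against 9.29, 10.20 and 8.57 in knockout. Its knockout columns lay on both sides of the wild type range, around a difference of -0.38 (SE 0.34). Without knockout 3 the difference was 0.014. Zbp1, a sensor of nucleic acids in the Z form, read 7.73, 7.08 and 7.02 in wild type, against 7.63, 7.13 and 8.45 in knockout. The difference of 0.46 (SE 0.32, 95% interval -0.25 to 1.17) was the highest among members and rested on knockout 3, the other knockout columns being inside the wild type range.

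The oligoadenylate synthetases make a short nucleotide messenger that activates RNase L. In knockout, 4 of the 6 members of this family were lower in their mean, beside 50.6% of all genes. Oas1g read 6.32, 6.30 and 6.19 in wild type, against 6.0, 6.17 and 5.67 in knockout. The groups did not overlap, although knockout 2 and wild type 3 were nearly equal, and the difference was -0.32 (SE 0.20, 95% interval -0.76 to 0.12). Oas1g was the only member well above background on fewer than all 6 arrays (5). Oas1a, a near-identical copy whose probe could share signal with Oas1g, read 10.11, 10.36 and 10.39 in wild type, against 10.06, 10.22 and 9.73 in knockout. It differed by -0.28 (SE 0.20) with overlap through wild type 1. Oas3 differed by -0.14 (SE 0.34) and Oas2 by -0.0059 (SE 0.20). The sign of Oas3 was not stable, at 0.26 without knockout 3 and 0.24 with slide as a block. Oasl1 and Oasl2, the synthetase-like relatives, differed by 0.22 (SE 0.23) and 0.20 (SE 0.21); the spot of Oasl2 was marked as an outlier on 5 arrays.

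The 9 other antiviral effectors had a median difference of -0.15, and none was without overlap. Isg20, an exonuclease that degrades RNA, read 11.40, 12.29 and 11.73 in wild type, against 12.38, 11.98 and 12.17 in knockout. It differed by 0.37 (SE 0.25), with wild type 2 above 2 of the knockout columns. Ifit1, Ifit2 and Ifit3, which bind viral RNA or act with proteins that do, differed by -0.066 (SE 0.28), -0.23 (SE 0.24) and -0.24 (SE 0.19). Ifit3 read 13.07, 13.11 and 13.12 in wild type, against 13.08, 12.66 and 12.84 in knockout, so knockout 1 lay within the wild type columns. Rsad2 (viperin) differed by -0.15 (SE 0.23) at its brightest probe, and by -0.23 and 0.36 at the other 2, so its sign depended on the probe. Bst2 (tetherin), which holds budding virus at the cell surface, differed by -0.19 (SE 0.21) and Ifi44 by -0.19 (SE 0.21). Ifi35 differed by 0.0034 (SE 0.26). The probe named Isg15, a ubiquitin-like modifier, differed by 0.040 (SE 0.24), but the matrix places it on chromosome 17 whereas RefSeq has Isg15 on chromosome 4, so which gene it measures is uncertain; the other 32 members lay on the same chromosome in both.

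The GTPases attack the vacuoles of intracellular parasites or the replication of viruses. Of these, 6 of 7 were lower in knockout in their mean, beside 50.6% of all genes. Iigp1 (chromosome 18, probe A_51_P387239), an immunity-related GTPase, read 9.42, 9.12 and 9.11 in wild type, against 8.35, 8.85 and 8.58 in knockout. Every knockout column lay below every wild type column. The means were 9.22 ± 0.17 and 8.59 ± 0.25 (SD, n = 3), a difference of -0.63 (SE 0.21, 95% interval -1.08 to -0.17), or 0.648 of the wild type intensity, with an adjusted p of 0.746 in limma. Leaving out any 1 column left the difference between -0.75 and -0.51, with the smallest adjusted p at 0.488 without knockout 2. Iigp1 lies on chromosome 18, as does Mbd1, and whether this location has a part in the difference was not tested. Gbp2, a guanylate-binding protein, read 10.04, 10.11 and 9.77 in wild type, against 9.86, 9.79 and 9.40 in knockout. The groups overlapped through wild type 3, and the difference was -0.29 (SE 0.21). Gbp3 differed by -0.18 (SE 0.25) and Igtp by -0.093 (SE 0.19). Irgm1, a regulator of the other immunity-related GTPases, differed by 0.11 (SE 0.24), with its spot marked as an outlier on 3 arrays and the opposite sign at its other probe. Mx1 and Mx2, GTPases that block viral replication, differed by -0.022 (SE 0.18) and -0.17 (SE 0.20), and the other Mx1 probe had the opposite sign.

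Both negative feedback genes were slightly higher in knockout in their mean, within their error. Usp18, which removes ISG15 from proteins and blocks type I receptor signalling, read 11.18, 11.56 and 11.60 in wild type, against 11.45, 11.48 and 11.46 in knockout. Its difference was 0.018 (SE 0.19), with the knockout columns inside the wild type range, and it was -0.11 without wild type 1. Socs1, an inhibitor of JAK kinases, read 8.57, 8.14 and 8.01 in wild type, against 8.36, 8.28 and 8.85 in knockout. It differed by 0.26 (SE 0.23), and wild type 1 lay above 2 of the knockout columns; with slide as a block it was at -0.011.

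**Figure D2:**
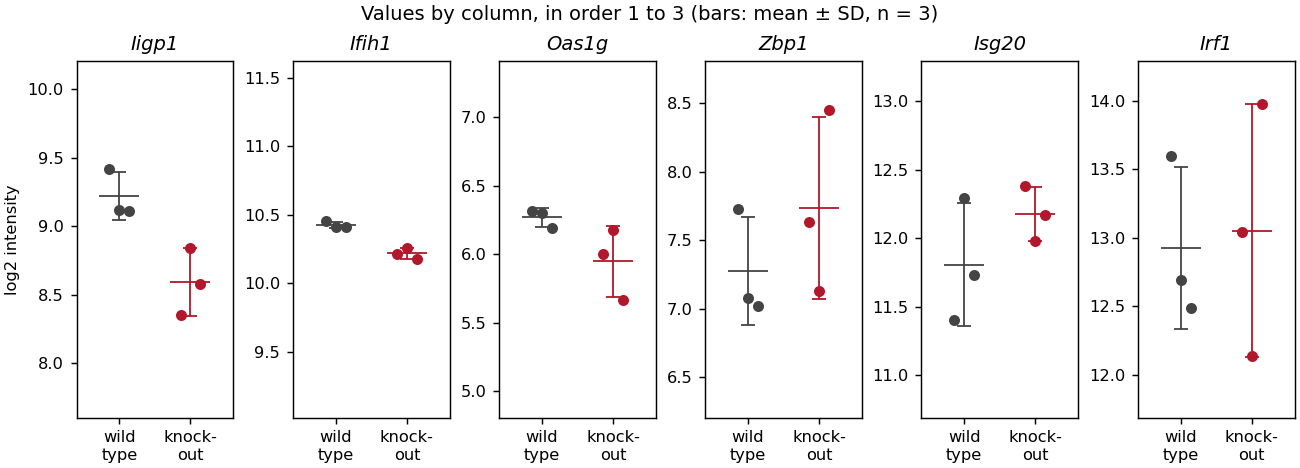
Log2 intensity of 6 interferon response genes in each matrix column, wild type in grey and knockout in red, with columns 1 to 3 from left to right; wide bars are means and capped bars 1 SD (n = 3), and every panel spans the same log2 range. Iigp1, Ifih1 and Oas1g do not overlap between the genotypes, while Zbp1 and Irf1 have their highest value in knockout 3.

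The type I and the gamma members had medians close to each other, and the difference between them was not tested. Type I members had a median difference of -0.12, with 9 positive and 17 negative, and gamma members one of -0.093, with 3 positive and 4 negative. The type I median was 0.012 without knockout 3 and -0.056 without wild type 3, so its sign rested on a single column. The gamma median was -0.035 without wild type 1, -0.040 without knockout 1, -0.045 without knockout 2, -0.15 without knockout 3 and -0.20 without wild type 2. By column, the median deviation of type I members from their own means ran from 0.017 to 0.12 in wild type and from -0.057 to 0.030 in knockout. Gamma members had their highest median in wild type 1 (0.21) and their lowest in wild type 2 (-0.17), both wild type columns. The wild type columns alone spanned this range, and the knockout columns lay inside it.

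**Figure D3:**
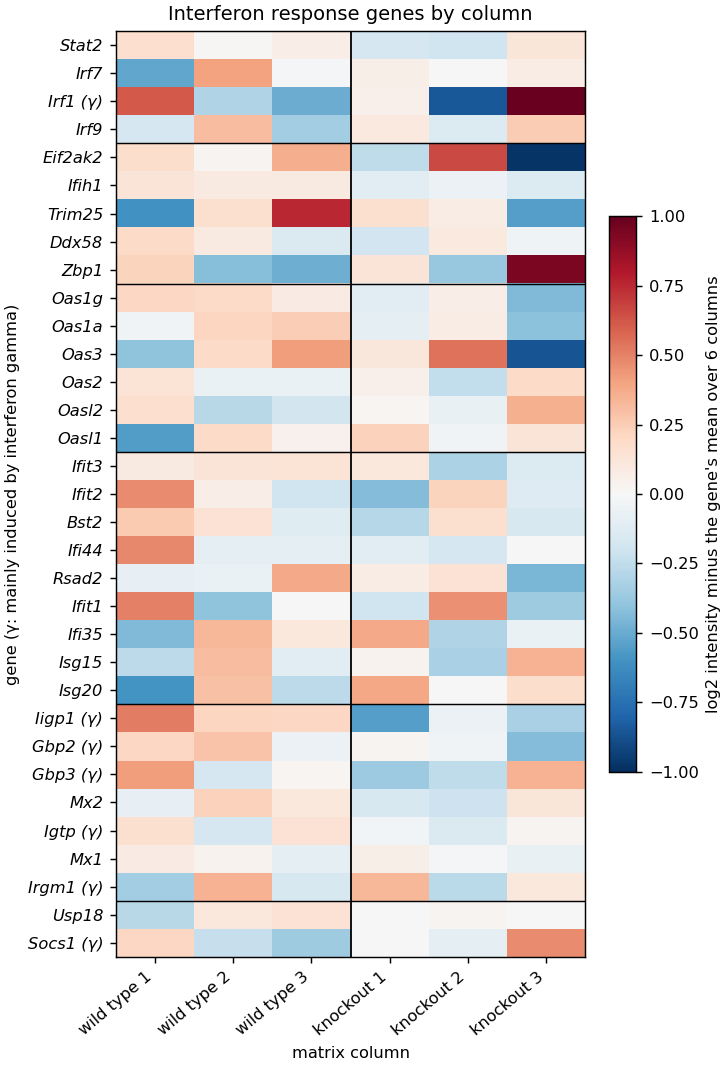
Log2 intensity of the 33 interferon response genes in the 6 matrix columns, each row after subtraction of the gene's own mean (colour scale -1 to 1), grouped by role with gamma induced genes marked. No column is high or low in all rows; wild type 1 holds the highest value of 12 genes and the lowest of 7.

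The median deviation of all members from their own means was 0.14, 0.10 and -0.0060 in the wild type columns, against 0.021, -0.060 and -0.0012 in the knockout columns. Over all genes it lay between -0.022 and 0.0069 in every column. Wild type 1 was the highest column for 12 members (36.4%, against 20.3% of all genes) and also the lowest for 7 (21.2%, against 22.6%). Knockout 3 was the highest for 6 and the lowest for 7. Irf1 and Zbp1 were highest in knockout 3, the column in which Eif2ak2 and Oas3 were lowest.

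The slide could be examined in part. Wild type 1 (slide 1) differed from wild type 2 and 3 (slide 2) by a median size of 0.36 over the 33 members and 0.28 over all genes. This sets 1 column against 2 and so has a larger error than the comparison of 3 with 3 columns, in which the medians were 0.18 and 0.14. With slide as a block the fit leaves out knockout 1, which equalled no scanner array, and compares knockout 2 and 3 with wild type 1 within slide 1. No member and no gene over all passed in that fit (limma; smallest adjusted p 0.731 among members and 0.0737 over all genes). The median over members was -0.13, with 21 negative. The sign was that over all columns for 27 of 33 members and for 16404 of 21493 genes, in comparisons that share 3 columns. Iigp1 was at -0.71 (SE 0.28). Gamma members had a median of -0.37 with 6 of 7 negative, beside 0.0062 over all genes; Irf1 moved most among them, from 0.12 to -0.54. Of the type I members, Isg20 was at 0.68, Oasl1 at 0.61, Irf7 at 0.55 and Ifi44 at -0.56. Each of these values rests on wild type 1 as the only wild type column, and the part of the slide in the member values was not tested further.

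**Figure D4:**
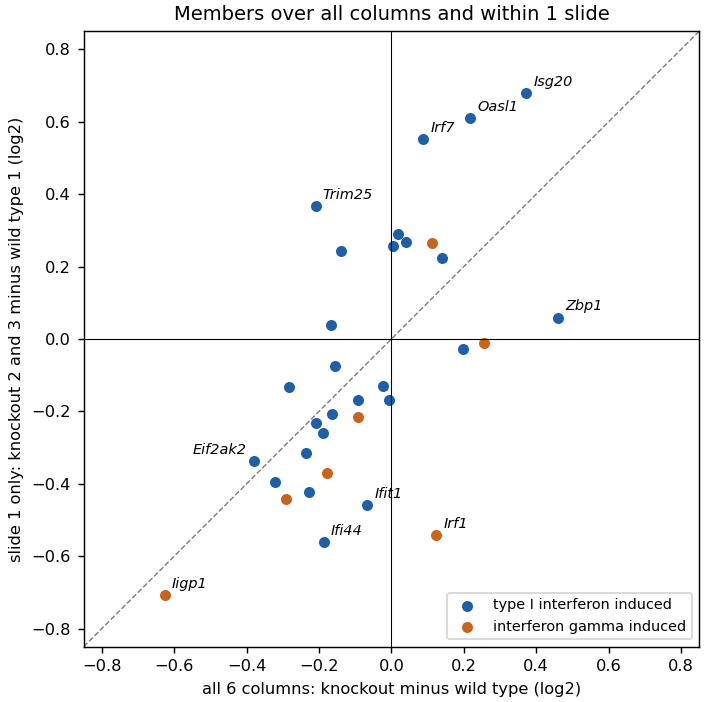
Difference between knockout and wild type for each interferon response gene over all 6 columns (horizontal, log2) against that within slide 1, where knockout 2 and 3 are compared with wild type 1 (vertical, log2); the dashed line marks equal values. The axes share 3 columns, so points near the line are no separate support; Iigp1 is lowest on both axes (-0.63 and -0.71), and Irf1 and Trim25 change sign.

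The genes upstream of the members showed no call either. Of 15 interferon ligands and receptors, 11 were measured, 5 higher and 6 lower in knockout in their mean, and 0 passed in limma (none had an unadjusted p under 0.05). Ifnb1, the type I interferon that mTECs are known to express, read 6.53, 6.47 and 6.38 in wild type, against 6.33, 6.32 and 6.28 in knockout. These groups did not overlap, which held for 1 of the 11 measured and for 8.37% of all genes. The difference for Ifnb1 was -0.15 (SE 0.18, adjusted p = 0.999 in limma). Its values were not far above the background level of 5.47 to 5.62 by column. Ifng, the gene of interferon gamma, read 8.29, 8.68 and 8.61 in wild type, against 9.07, 8.58 and 9.60 in knockout, overlapping through knockout 2, with a difference of 0.56 (SE 0.26, adjusted p = 0.999 in limma). Ifne differed by 0.54 (SE 0.28), Ifngr1 by 0.26 (SE 0.28) and Ifnlr1 by -0.25 (SE 0.23). Ifne was near the floor, being well above background on only 4 arrays. Its values in wild type 1 and 2 (5.055 and 5.301) lay under the background level of those columns (5.624 and 5.537). Which cells gave the Ifng signal was not tested, and the gate was set to exclude CD45-positive cells; in bulk samples fewer cells of a type and less RNA per cell cannot be told apart. Of the 12 signalling genes, 7 were higher and 5 lower in their mean and 0 passed in limma (none had an unadjusted p under 0.05). Socs3, an inhibitor of JAK kinases, differed by 0.38 (SE 0.22), Ptpn2 by -0.30 (SE 0.27) and Jak2 by -0.18 (SE 0.20).

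Of 12 genes of nucleic acid sensing, 10 were measured, 5 in each direction, and 0 passed in limma, with 1 (Tlr9) at an unadjusted p under 0.05. Tlr9, a receptor for unmethylated CpG DNA, read 10.22, 10.40 and 10.41 in wild type, against 10.93, 10.69 and 10.73 in knockout, a difference of 0.44 (SE 0.19, adjusted p = 0.999 in limma) without overlap. Sting1, the adaptor of the cytosolic DNA sensor, also did not overlap and differed by 0.22 (SE 0.18). These were the only 2 of the 10 measured genes without overlap, against 8.37% of all genes. Tlr3 differed by -0.31 (SE 0.22) and Myd88 by -0.24 (SE 0.22). The 7 genes that limit cellular nucleic acids, 4 of them higher and 3 lower in their mean, had 0 calls in limma and none at an unadjusted p under 0.05. Among these, Adar, which edits double-stranded RNA, differed by -0.35 (SE 0.23), Rnaseh2c by 0.32 (SE 0.29), Trex1 by 0.19 (SE 0.20) and Samhd1 by -0.18 (SE 0.20).

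Further interferon induced genes, outside the 33, also had no call. Of 26 other type I induced genes 25 were measured, 8 higher and 17 lower in their mean, with a median difference of -0.050 and 0 calls in limma (2 at an unadjusted p under 0.05). Trim21, an intracellular antibody receptor, read 8.27, 7.99 and 8.36 in wild type, against 7.59, 7.82 and 7.37 in knockout, without overlap, at -0.61 (SE 0.20, adjusted p = 0.777 in limma). Trim30a went the other way at 0.60 (SE 0.21), also without overlap. Ifi203 differed by -0.51 (SE 0.23) and Cmpk2 by -0.37 (SE 0.18), the latter without overlap. Among the 25, 3 did not overlap (1 higher and 2 lower in knockout), against 8.37% of all genes. Of 20 other gamma induced genes 18 were measured, 6 higher and 12 lower, with a median of -0.080 and 0 calls in limma (none at an unadjusted p under 0.05). Tgtp1 differed by -0.48 (SE 0.25), Cd274, which encodes PD-L1, by -0.37 (SE 0.28), Irgm2 by -0.26 (SE 0.20) and Ciita, the activator of MHC class II genes, by 0.35 (SE 0.19). Ciita did not overlap between the genotypes. Among the 18, 2 did not overlap (1 higher and 1 lower in knockout), against 8.37% of all genes.

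Markers of other cells that the sort could hold were measured beside the interferon genes. The summed linear intensity of plasmacytoid dendritic cell markers was 19730 to 22760 in wild type, against 17350 to 22410 in knockout (7 of 8 measured, Siglech not well above background). Markers of dendritic cells and macrophages gave 32470 to 38560 and 31050 to 35870 (12 of 13, Clec9a not well above background). Natural killer cell markers gave 1227 to 1366 and 967.5 to 1362, and B and plasma cell markers 5291 to 6909 and 4955 to 7092. Cortical epithelial markers gave 56180 to 72220 and 65790 to 84370. The genotypes overlapped in each of these sums, which are set largely by a few bright probes. Single markers did not overlap for 6 of the 12 measured dendritic cell and macrophage markers (4 higher and 2 lower in knockout), 3 of the 7 plasmacytoid, 3 of the 6 cortical epithelial, 2 of the 9 B and plasma cell and 0 of the 7 natural killer cell markers, against 8.37% of all genes. None of these passed the adjusted threshold in limma, with 2, 1, 1, 2 and 0 of them, in the same order, at an unadjusted p under 0.05. Jchain, the joining chain of secreted antibodies, differed by 1.74 (SE 0.45, adjusted p = 0.360 in limma) and Mzb1, another plasma cell gene, by 0.56 (SE 0.20). Pacsin1, a plasmacytoid dendritic cell marker, differed by 1.01 (SE 0.20, adjusted p = 0.126 in limma), and Spib and Ccr9 of the same list by 0.41 (SE 0.19) and -0.43 (SE 0.20). Tyrobp, Itgax, Zbtb46 and Flt3 were higher in knockout without overlap, by 0.70, 0.47, 0.39 and 0.17, while Lyz2 and Xcr1 were lower without overlap, at -0.27 and -0.28. Among cortical markers Prss16 and Ccl25 differed by 0.52 and 0.43 and Ly75 by -0.27.

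The letters in the promoters were set beside the differences as a description, for the 27 of 33 members with a listed promoter. Iigp1 (-0.63) and Zbp1 (0.46), the lowest and highest members, had none and are in no group here. Members with the ISRE letters had a median difference of -0.16 and those without it one of 0.0034. Isg15 is among those with the letters, although which gene its probe measures is uncertain. Members with TTCNNNGAA had a median of -0.19 and those without it one of -0.12; among the gamma members alone these were 0.015 and -0.033. Oas1a and Oas1g, with the same letters in the windows printed above, differed by -0.28 and -0.32, and by -0.29 and -0.75 with a background level subtracted. Igtp and Irgm1, both with the ISRE letters close to the start, differed by -0.093 and 0.11.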

How the data were processed

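The members and lists were chosen with earlier results of these data known. The deposited scanner files held linear intensity values from Agilent's Feature Extraction, whose version was 10.6 in the submitters' processing notes and 10.7.3.1 per the file headers. The authors' deposited matrix held log2 intensity per probe; its normalization, and the build of its coordinates, were not given in the sources used here. From the authors' deposited table, its FDR values (adjusted p-values) were counted: 26 of 41174 probes were under 0.05, none of them a member's, and the smallest among members' probes was 0.870.

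Each array had 43379 non-control spots, none saturated, with 73.5% to 81.3% of probes well above background. A probe was kept where it was so on at least 3 of 6 scanner arrays; the brightest kept probe stood for its gene, and probes without a symbol stood for themselves. The matrix was fitted with lmFit and eBayes of limma 3.58.1 (R 4.3.3), adjusted by Benjamini-Hochberg over 21493 genes at 0.05, and tested on simulated data. An exact permutation test of 3 against 3 cannot go below 0.1. Beyond the members, named genes were Mbd1, defining markers and, in each other list, the 4 of smallest p; 1 gene that this rule names is not reported here. Alternatives were the filter, the probe rule, moderation, centring, replicate and slide blocks, each column left out, and scanner files under their titles, with log2 processed intensity scaled to the 75th percentile or normexp on the median signal, as the mean signal was not in the files. Subtraction of a background level was added after seeing the data. Same-numbered columns deviated oppositely (correlations -0.28, -0.17 and -0.33), and the main fit used no pairing. This check cannot exclude a pairing by number, as same-numbered columns 2 and 3 equalled arrays of different slides.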

Additional observations from a re-analysis of the deposited data

How the results depend on the processing

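No member passed under any of the 16 alternatives run in limma. Of the 33 members, 14 kept their sign under every alternative on the matrix columns, Iigp1, Ifih1, Isg20 and Zbp1 among them. The count of 39 genes passing became 20 without the filter on dim probes, 24 with a background level subtracted, 63 with the replicate block, and 0 with the slide block or with scanner files under their titles, processed or normexp; leaving out 1 column gave 18 to 57. The replicate block, for which a pairing by number is not established, left the member count at 0 and the medians as they were. The smallest adjusted p among members was 0.9997 in limma. The median over members was 0.096 under scanner titles and 0.0095 with normexp, and that of type I members 0.13 and 0.0081; the titles disagree with the matrix columns on genotype, so these are other groupings. With slide as a block the gamma median was -0.37. Leaving out 1 column gave -0.10 to -0.066 over all members, -0.12 to 0.012 for type I and -0.20 to -0.035 for gamma members. With the background level subtracted, Oas1g was at -0.75 (95% interval -1.51 to 0.021) and 24 of 33 intervals lay within 2-fold. Over all genes the share of intervals within 2-fold went from 91.96% to 68.28%. Subtracting a near-equal level from every column enlarges the differences and the spread of dim genes by construction. It therefore cannot show whether the matrix understates the folds of dim members. The causes of the other changes were not tested. Precision is limited by 3 arrays per genotype.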
